A study of Homo sapiens with 6 samples.

Results

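Regions to which both tagged HSP70 chaperones were crosslinked in every deposited peak list are described here. They were found by pooling the 4 peak lists, 2 for HSPA1A and 2 for HSPA8, and joining peaks that shared at least 1 base on the same strand. A joined region was kept when it held a peak from each list, which left 479 of 3920 regions (12.2%). The study profiled 6 libraries of HEK293 Flp-In T-Rex cells, a cell line of human embryonic kidney origin with a tetracycline-switched transgene, by FLASH-seq, which sequences RNA crosslinked by UV-C light to a purified protein. In every library the bait came from an induced transgene with a 3xFLAG-HBH tag, after 1 µg/ml tetracycline. The groups were tagged GFP as a control protein, tagged HSPA1A and tagged HSPA8, with 2 biological replicates each. Peaks of the tagged GFP control were not used here. No value therefore has a control background, and binding and RNA abundance cannot be told apart.

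HSPA1A is the stress-inducible and HSPA8 the constitutive cytosolic member of the HSP70 family, ATP-driven chaperones that bind short hydrophobic stretches of unfolded proteins. RNA polymerase III (Pol III) makes short non-coding RNAs such as tRNAs, 5S rRNA, U6 snRNA, 7SK and the RNA subunits of RNase P and RNase MRP. Most other spliceosomal snRNAs, U1 among them, are made by RNA polymerase II and carry an Sm site, a short uridine-rich stretch on which a ring of Sm proteins assembles. Small RNA genes of both kinds have many near-identical copies and pseudogenes in the human genome, and reads from them can match several places.

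Sequences are shown for regions that lie in a RefSeq promoter window (GRCh38.p14) and carry a motif or a gene end described below. They run 5′ to 3′ on the strand of the peaks, with the bases inside the shared region in capitals. A shared region joins the peaks of all 4 lists, so not every capital lay in a peak of each list.
RNU1-28P (chr14:34556359-34556389, minus strand, 5′ end of a U1 copy): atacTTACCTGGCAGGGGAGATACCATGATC
RNU1-65P (chr10:84003432-84003479, plus strand, 3′ part of a U1 copy): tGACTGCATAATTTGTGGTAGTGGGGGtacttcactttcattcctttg
RNU7-1 (chr12:6943816-6943878, plus strand, whole U7 gene): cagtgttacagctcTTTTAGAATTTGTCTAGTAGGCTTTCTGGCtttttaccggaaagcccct
RPPH1 (chr14:20343385-20343413, minus strand, 5′ end of RNase P RNA): CCATAGGGCGGAGGGAAGCTCATCAGTGG
TRL-AAG2-4 (chr16:22297159-22297223, plus strand, tRNA-Leu): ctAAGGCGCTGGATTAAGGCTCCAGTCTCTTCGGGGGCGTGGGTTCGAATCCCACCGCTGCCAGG
TRL-AAG2-2 (chr6:28943612-28943703, minus strand, tRNA-Leu with 10 bases beyond the gene): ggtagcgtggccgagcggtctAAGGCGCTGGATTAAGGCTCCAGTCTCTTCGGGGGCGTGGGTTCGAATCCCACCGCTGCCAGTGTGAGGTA
The letters ACTTACCTG, with which U1 pairs to 5′ splice sites, began at base 3 of the RNU1-28P sequence. The merged region started at base 5, so it left out the first 2 of these letters. Only HSPA8 replicate 1 covered all 160 bases of it. HSPA1A replicates 1 and 2 covered 144 and 134, and HSPA8 replicate 2 covered 137. The U1 Sm site letters AATTTGTGG lay at bases 10 to 18 of the RNU1-65P sequence, all inside the region. The first letters of the U7 Sm site, searched as AATTTGTCT, lay at bases 21 to 29 of RNU7-1, again inside. The core of the B box, an internal promoter element of tRNA genes, searched as GTTCGANTC, lay at bases 62 to 70 of the TRL-AAG2-2 and 43 to 51 of the TRL-AAG2-4 sequence. Searched on both strands, these 4 motifs occurred in 0.189%, 0.169%, 0.22% and 0.255% of the 34943 promoter windows, in the order given. The TRL-AAG2-4 and TRL-AAG2-2 sequences were identical at 64 of 65 aligned bases. Counted along the gene, the peaks of both HSPA1A lists ended at base 63 in these 2 genes, within the B box. Those of HSPA8 replicate 1 ended at base 84 in TRL-AAG2-4 and 92 in TRL-AAG2-2, and those of HSPA8 replicate 2 at base 81. The 10 bases beyond the TRL-AAG2-2 gene thus came from HSPA8 replicate 1 alone. TRL-AAG2-4 lay 186 to 248 bases upstream of the start of POLR3E, which encodes a Pol III subunit, and was shown for that position.

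The rule used the presence of peaks, so the values in this paragraph are descriptions. The members were chosen by the presence of a peak, not by its score. The authors' score of a peak is a whole number of unstated meaning, so it was only ranked within a list. Lists are named by bait and replicate, and values from 4 lists are given in the order HSPA1A replicate 1, HSPA1A replicate 2, HSPA8 replicate 1 and HSPA8 replicate 2. The lists held 2350, 1481, 2422 and 827 peaks on the chromosomes used, of which 23.1%, 37.2%, 22.1% and 65.5% fell in shared regions. These peaks carried 87.3%, 89.7%, 84.1% and 94.98% of the summed score of their list. Of the 100 highest-scoring peaks of each list, 100, 99, 99 and 99 were in shared regions. The median highest score per region was 63, 33, 42 and 19. Regions just outside the rule, with a peak in 3 lists, had medians of 11, 9, 12 and 8. There were 359 of them, and the missing list was HSPA8 replicate 2, the shortest, in 198. The missing list was HSPA8 replicate 1 in 96, HSPA1A replicate 2 in 39 and HSPA1A replicate 1 in 26.

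The shared regions were short and closely aligned between lists. Their median width was 54 bases, from 22 to 1122, and together they spanned 34.9 kb. All 479 had at least 1 base covered by peaks of all 4 lists, although the rule asked only for a chain of overlaps, and the median stretch covered by all 4 was 39 bases. Exactly 1 peak per list was present in 403 regions (84.1%). In those, the 5′ ends of the 4 peaks lay within 2 bases of each other in 235 (58.3%) and the 3′ ends in 205 (50.9%). In 13 regions both ends were the same base in all 4 lists. These included the U7 gene RNU7-1 at bases 15 to 44, the tRNA gene TRN-GTT2-5 and the pseudogenes RNU6-17P, RNU6-18P and RNU6-22P. The plus strand held 222 regions and the minus strand 257, and chromosome 1 alone held 95.

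Small RNA genes and their copies made up most of the shared regions. Pol III genes held 62 (12.9%, 95% Wilson interval 10.2 to 16.2), snRNA genes 50 (10.4%, 8.01 to 13.5) and snoRNA genes 12 (2.51%). Pseudogenes of small RNAs and rRNAs held 179 (37.4%, 33.2 to 41.8), the largest class. The mitochondrial genome held 8 (1.67%), other non-coding genes 31 (6.47%), protein-coding genes with no small RNA gene under the region 71 (14.8%), and no gene 66 (13.8%). Over all 3920 regions, protein-coding genes made up 36.3%, these pseudogenes 16.3%, Pol III genes 7.73%, snRNA genes 1.66% and snoRNA genes 2.55%. In regions of 3 lists, the pseudogenes made up 30.9%. Pol III genes made up 25.1% there, more than in the shared regions. Of the 65 regions on snRNA genes, 50 (76.9%) were shared, beside 12.2% over all regions. For the pseudogenes it was 179 of 639 (28.0%), for Pol III genes 62 of 303 (20.5%) and for protein-coding genes 71 of 1424 (4.99%). For snoRNA genes it was 12 of 100, close to the share over all regions. For the mitochondrial genome it was 8 of 100, below that share. Small RNA genes, their pseudogenes and the mitochondrial genome together made up 64.9% of regions in 4 lists, 63.5% in 3, 49.6% in 2 and 15.0% in 1. Intervals cover counting error only, and copies of one RNA are not independent regions.

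**Figure D1:**
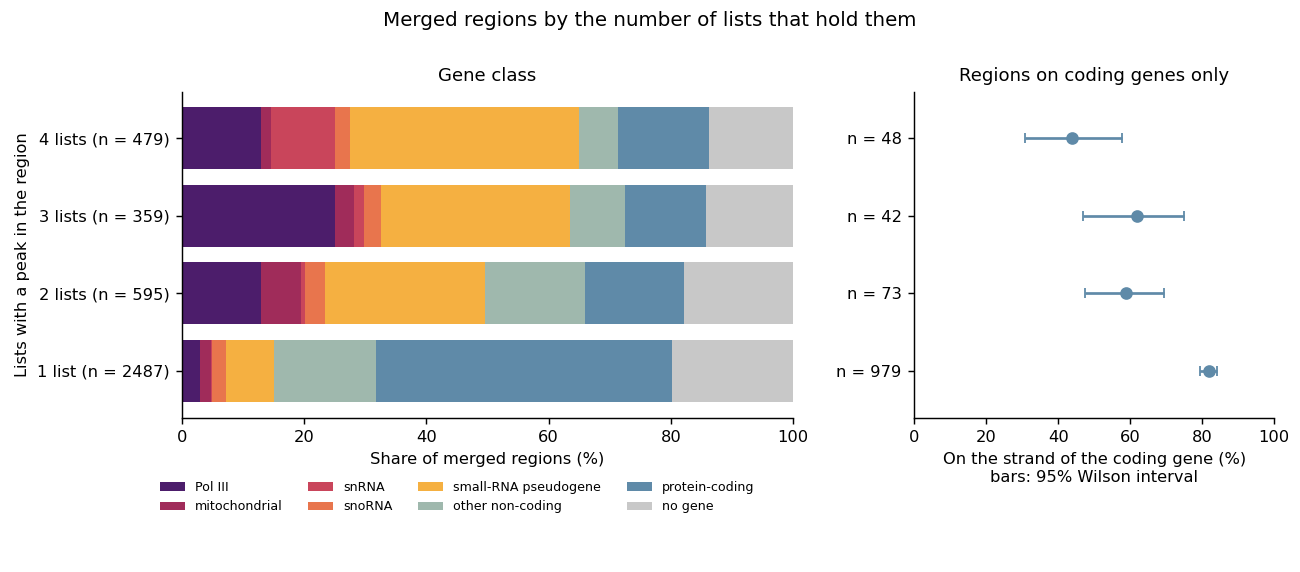
Left, the share of merged regions in each gene class (x axis, percent) for regions with a peak in 4, 3, 2 or 1 lists (y axis); right, for regions on protein-coding genes alone, the percent on the strand of the gene, with 95% Wilson intervals. Protein-coding genes take 14.8% of the 479 shared regions and 48.6% of the 2487 found in 1 list, and the share on the gene's strand is 43.8% in the former and 81.9% in the latter.

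Among Pol III RNAs other than tRNA, every gene of 5S rRNA, U6, 7SK, RNase MRP and RNase P was shared. Genes of 7SL were shared in part, and those of the other families were not. All 17 genes of 5S rRNA, the smallest RNA of the large ribosomal subunit, held a shared region, as did all 5 U6 genes. RN7SK, whose RNA restrains the elongation factor P-TEFb, RMRP, the RNA of RNase MRP, and RPPH1, the RNA of RNase P, were also shared. Of the 3 genes of 7SL, the scaffold of the signal recognition particle, RN7SL1 and RN7SL2 were shared and RN7SL3 had a peak in 3 lists. The 4 Y RNA genes, the U6atac gene and 1 of 4 vault RNA genes had peaks in 1 or 2 lists. The snaR genes had peaks in 3 lists at 10 of 28 loci and in 1 or 2 at 12. The BC200 gene had a peak in 0 lists.

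The 5S genes scored highest of these RNAs in all 4 lists. RNA5S1, on chromosome 1 from 228610266 to 228610386, scored 541, 282, 1120 and 190. The other copies stood close to it: leaving out RNA5S9, the scores ran from 528 to 546, from 281 to 283, from 1085 to 1120 and from 182 to 190. RNA5S9 was split into a region at bases 3 to 75, which scored 332, 160, 587 and 104, and one at bases 85 to 121, which scored 34, 34, 45 and 25. In the other 16 genes the region ran from base 9 to base 120 of 121, and the lists differed by at most 1 base.

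RN7SK scored 273, 103, 228 and 42, and its region covered bases 19 to 331 of 332. The 4 lists shared the 3′ end at base 331 and differed in their start, from base 19 to base 39. RMRP had a 5′ region at bases 4 to 163, which scored 167, 242, 61 and 77, and a 3′ region at bases 164 to 269, which scored 121, 130, 37 and 57. RPPH1 scored 60, 67, 22 and 11, and its region took in the annotated start and ended at base 164 of 341. In HSPA1A replicate 2 the peaks ended at base 87. The 3′ part of RPPH1 was therefore outside the shared region. The 7SL genes were the lowest of the set in mean rank, RN7SL2 at 30, 9, 42 and 6 and RN7SL1 at 45, 10, 83 and 6. HSPA8 replicate 1 covered RN7SL1 from base 1 to base 300, past its length of 299, while HSPA8 replicate 2 covered bases 143 to 197. RNU6-1 scored 183, 62, 115 and 51, and the 5 U6 genes stayed between 168 and 193, 54 and 63, 90 and 121, and 40 and 51.

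**Figure D2:**
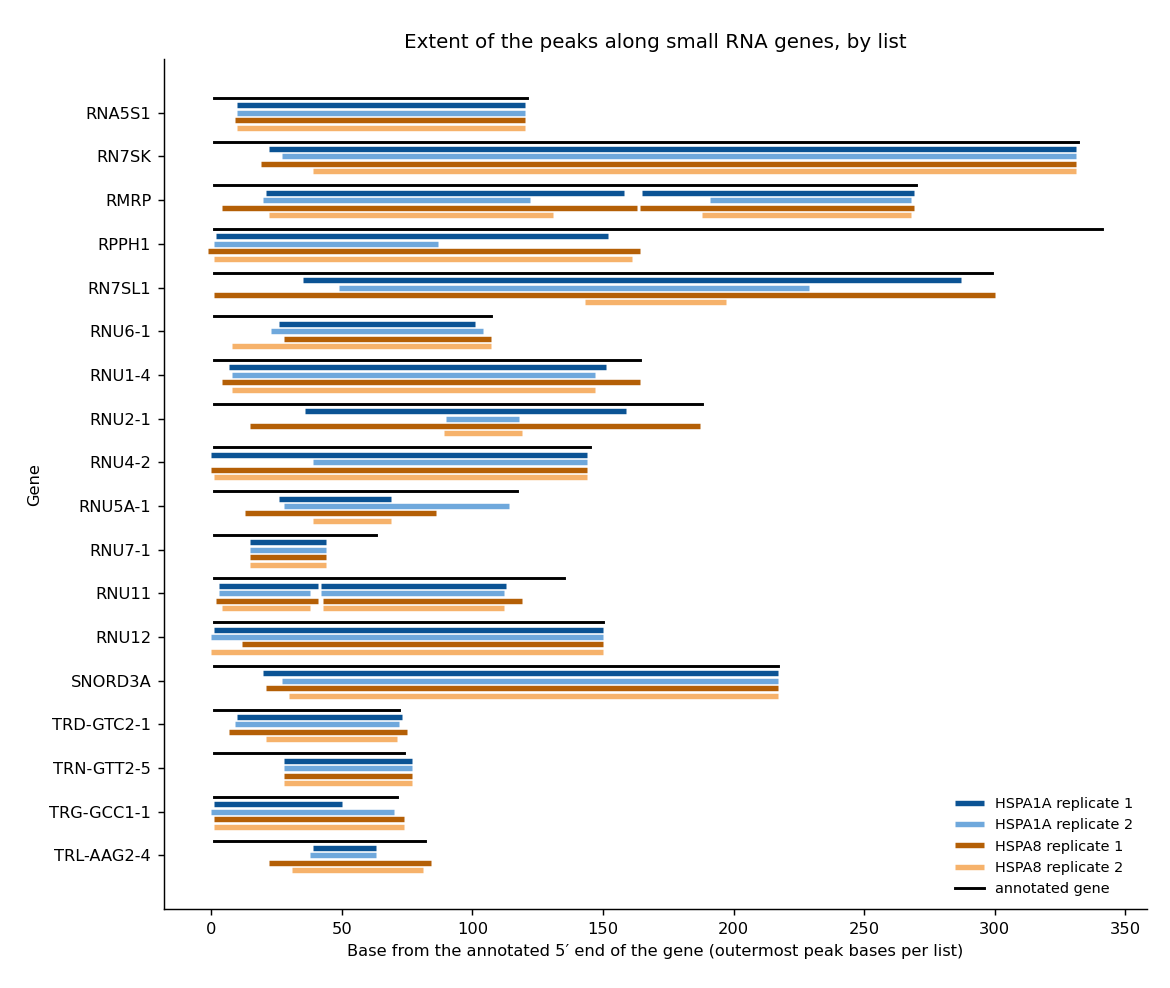
Extent of the peaks of each list (coloured bars, outermost bases) along 18 annotated small RNA genes (black bars); the x axis is the base counted from the annotated 5′ end on the strand of the peaks. RNU7-1 and TRN-GTT2-5 have the same ends in all 4 lists, RNU2-1 is covered at bases 90 to 118 in HSPA1A replicate 2 and at 15 to 187 in HSPA8 replicate 1, and the RPPH1 bars end before the 3′ part.

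Transfer RNA genes were shared in a small number of anticodon groups. Of 443 nuclear tRNA genes, 33 held a region in all 4 lists (7.45%), 77 in 3, 128 in 1 or 2, and 205 in 0. Counted by region, 33 of 240 in the tRNA family were shared (13.8%), beside 12.2% over all merged regions. The 33 genes comprised all 13 aspartate GTC genes, 7 of 22 asparagine GTT genes and 5 of 13 glycine GCC. The others were 4 of 9 leucine AAG, 3 of 13 lysine TTT and 1 of 5 valine TAC. The aspartate genes scored highest, with medians of 331, 186, 75 and 53. TRD-GTC2-8, on chromosome 12, scored 354, 360, 96 and 57. The next 4 genes, TRD-GTC2-1 to TRD-GTC2-4 on chromosome 1, ran from 351 to 354, 357 to 361, 95 to 96 and stood at 53 in HSPA8 replicate 2. The asparagine genes followed in the HSPA1A lists, with medians of 58, 20, 11 and 6, and the lysine genes had 28, 16, 22 and 9. The glycine genes had medians of 10, 11, 19 and 5, the leucine genes 9, 13, 9 and 5, and TRV-TAC2-1 scored 21, 5, 7 and 5. The glycine, leucine and valine genes all scored 5 in HSPA8 replicate 2, at percentile 2.71. TRG-GCC1-1 was at percentile 30.3 in HSPA8 replicate 1 and TRL-AAG2-1 at 23.1 in HSPA1A replicate 2, so they were not equally low in every list.

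The part of the tRNA covered differed by anticodon group. The 11 TRD-GTC2 regions began at base 6 or 7, and the 5 TRG-GCC1 regions 1 base before the annotated start. The 7 TRN-GTT regions began at base 26 to 28, the 4 TRL-AAG2 regions at base 22, and 2 of 3 TRK-TTT regions at base 36. The outermost starts of the aspartate and leucine regions came from HSPA8 replicate 1. In the other lists TRD-GTC2-1 began at bases 9 to 21 and TRL-AAG2-1 at bases 31 to 39. Beginning beyond the 5′ arm, the asparagine regions held the 3′ portion of the molecule in each of the 4 lists. Mature tRNAs gain the letters CCA at their 3′ end, which the genes do not encode. All 33 regions extended past the annotated 3′ end of the gene, by 1 to 10 bases and by exactly 3 in 18. This rested on HSPA8 replicate 1, in which 33 of 33 peaks passed the end. In the other lists, in the same order, it was 20, 10 and 15 of 33, and the median end was 1, -1 and -1 bases past the gene. By exactly 3 bases, the counts were 3, 3, 18 and 9. A link between these ends and the CCA letters was not tested. Of tRNA regions in 3, 2 and 1 lists, 45 of 78, 40 of 66 and 26 of 62 passed the end, against 0 of 50 snRNA and 1 of 12 snoRNA regions in all 4 lists.

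Ranks within the 479 regions were compared between baits, since the series concerns Pol III. A score percentile of 100 marks the highest-scoring shared region of a list. The median percentile of the 62 Pol III regions was 75.8 and 75.5 for HSPA1A and 60.4 and 71.5 for HSPA8. The means were 75.6 ± 0.221 and 65.9 ± 7.86 (SD, n = 2), a difference of 9.68 (exact permutation test, two-sided, p = 0.333, adjusted p = 0.333). The median of the 33 tRNA regions was 47.0 and 37.7 for HSPA1A and 30.3 and 17.2 for HSPA8. The difference was 18.6, from means of 42.3 ± 6.57 and 23.8 ± 9.23 (SD, n = 2; exact permutation test, two-sided, p = 0.333, adjusted p = 0.333). Both HSPA1A lists lay above both HSPA8 lists in each case. The permutation p is the smallest that 2 lists against 2 can give, so the design cannot pass a threshold of 0.05. The tRNA regions are part of the Pol III set, so the 2 results overlap. The order did not hold for every Pol III RNA. Median percentiles of the 44 5S regions, 26 of them on pseudogenes outside the Pol III class, were 79.7 and 77.9 for HSPA1A. For HSPA8 they were 87.2 and 81.0. Without HSPA8 replicate 1 the Pol III difference was 4.12, without HSPA8 replicate 2 it was 15.2, and the tRNA difference was 12.1 without HSPA8 replicate 2.

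The spliceosomal snRNA genes held some of the highest scores. The U1 genes RNU1-1, RNU1-2, RNU1-3 and RNU1-4 and the variant RNVU1-18 scored 1964 to 1971, 1351 to 1358, 1058 to 1064 and 770 to 781. Their regions ran from base 3 or 4 to base 164, the last base of the gene. In RNU1-1, that end was reached in HSPA8 replicate 1, while the peaks of the other lists ended at bases 147 to 151. RNU2-1, on chromosome 17, scored 1472, 852, 728 and 609, and 12 unnamed snRNA genes between 43239925 and 43300217 on that chromosome scored 1348 to 1496, 797 to 855, 574 to 866 and 562 to 607. U2 pairs with the intron branch point, and its genes lie in this array of near-identical copies. RNU2-2 scored 328, 228, 391 and 138. RNU4-1 and RNU4-2 were much lower in every list, at 35, 14, 36 and 4 and at 37, 37, 58 and 13. Of the U5 genes, which contact the exons during splicing, RNU5B-1 scored 189, 179, 96 and 105 and RNU5F-1, the lowest, 64, 50, 34 and 23. RNU5A-1 scored 186, 169, 78 and 94, RNU5D-1 137, 115, 53 and 60, and RNU5E-1 143, 146, 87 and 96.

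Of the minor spliceosome RNAs, U11 and U12 were present as well, as was the histone processing RNA U7. The U6atac gene had peaks in only 1 or 2 lists, and no U4atac gene was among the shared snRNA genes. RNU11 had a 5′ region that scored 82, 328, 19 and 81 and a second region that scored 95, 366, 34 and 88. The merged region of RNU12 spanned the gene, of which the lists covered 76%, 72%, 92.7% and 62.7%, and scored 130, 177, 32 and 110. RNU7-1, whose RNA directs cleavage of histone pre-mRNA, scored 82, 132, 19 and 54. All 4 regions of these 3 genes ranked higher in replicate 2 than in replicate 1 of both baits, as did 155 of the 479 regions. SLBP, the gene of the stem-loop binding protein that acts with U7, held a region on the opposite strand of the gene that scored 169, 382, 73 and 162.

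Most U1, U2 and U6 regions lay on pseudogenes, and where along the RNA a region lay went with how it ranked. The U1 family held 58 regions, 23 on 15 genes and 35 on 29 pseudogenes. Of these, 19 started at base 100 or later of the annotated copy, 29 ended by base 120 after an earlier start, and 10 spanned both parts. In the later part, the median score percentile was 63.8 and 91.4 for HSPA1A and 21.5 and 91.4 for HSPA8. It was higher in replicate 2 than in replicate 1 of both baits for 18 of 19 regions. The median rise was 27.9 percentage points for HSPA1A, from -0.52 to 50.9, and 57.1 for HSPA8, from 7.83 to 83.3. In the earlier part, the medians were 61.1, 62.7, 42.8 and 67.6, and 10 of 29 regions were higher and 8 lower in replicate 2 of both baits. RNU1-65P, whose region is printed above with the Sm site letters, scored 58, 243, 5 and 117. RNVU1-7 held a region of each kind: bases 4 to 103 scored 1959, 985, 1047 and 660, and bases 104 to 149 scored 945, 1263, 350 and 730. RNVU1-28 and RNVU1-31, further U1 variant genes, were split in the same manner. The RNVU1-28 region at chr1:144560666-144560727 scored 1100, 1304, 464 and 731, and its neighbour, nearer the 5′ end of the gene, 588, 250, 276 and 153. In RNVU1-19 the later region scored 687, 1089, 234 and 572 and the earlier one 21, 6, 11 and 10. By rank, the 3′ region of RNVU1-7, RNVU1-19, RNVU1-28 and RNVU1-31 was higher in replicate 2 than in replicate 1 of both baits. The 5′ regions had no common direction: the first region of RNVU1-31 was at percentile 78.1 and 80.2 in HSPA1A, and its second region at 80.8 and 76.1. The pseudogene RNU1-11P carried both kinds, with 383, 180, 161 and 174 at its first region and 457, 974, 111 and 545 at its second.

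U2 copies showed a like split. RNU2-61P, a U2 pseudogene on chromosome 6 with a region of 31 bases, scored 607, 719, 122 and 499. The 12 regions that started at base 78 or later had median percentiles of 73.7, 87.3, 48.2 and 86.3, and 9 of 12 ranked higher in replicate 2 of both baits. The 13 that ended by base 75 had 22.2, 23.1, 37.4 and 35.4, and 5 of 13 did so. In RNU2-1 itself, the lists numbered 2 covered bases 90 to 118 and 89 to 119, inside the 36 to 159 and 15 to 187 of the lists numbered 1. Both U7 regions, RNU7-1 and the pseudogene RNU7-19P, also ranked higher in replicate 2 of both baits. The 15 U6 regions that started at base 63 or later, of which 10 ran from base 67 to base 107, did otherwise: all 15 ranked lower in replicate 2 for HSPA1A and higher for HSPA8. Their scores were low, at 10 to 37, 5 to 8, 8 to 20 and 9 to 17, where the lowest peaks in shared regions scored 5, 4, 5 and 4. Several of these 15 had the same 4 scores as another. Base numbers count along each annotated copy, and copies can carry insertions or deletions. The limits of 100, 120, 78, 75 and 63 bases were set after the positions were seen, so these counts are descriptions.

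**Figure D3:**
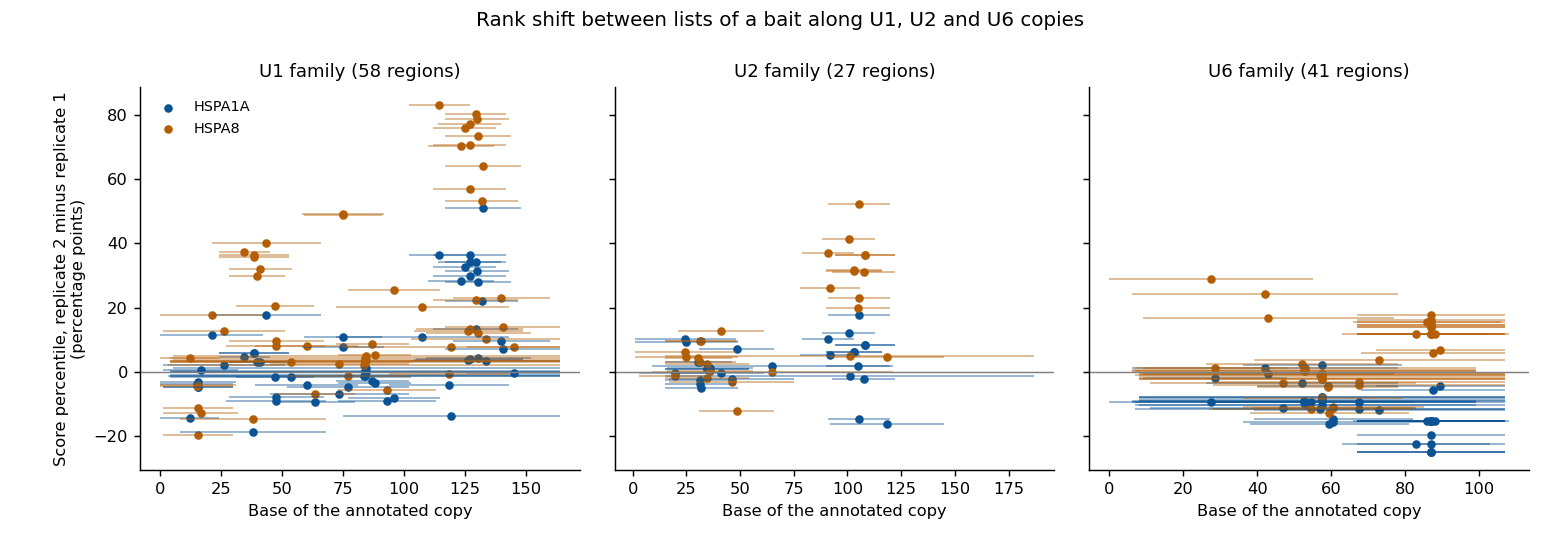
Change in score percentile from replicate 1 to replicate 2 of a bait (y axis, percentage points) for each region of the U1, U2 and U6 families, placed by the bases it covers in its annotated copy (x axis; points mark the middle, lines the extent). The 19 U1 regions from base 100 onward sit at a median of 27.9 for HSPA1A and 57.1 for HSPA8, above the earlier U1 regions at -3.24 and 8.14.

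In the U1, U6, 5S and 7SK families, pseudogene regions were shorter than those on genes. The median width was 32 bases on U1 pseudogenes and 50 on U1 genes, 44 against 100 for U6, 53 against 112 for 5S and 48 on 7SK pseudogenes against 313 on RN7SK. The 5S family held 26 pseudogene regions, with median scores of 79, 34.5, 84 and 31 against 534, 281, 1098 and 185 on its genes. The 36 U6 pseudogene regions had medians of 40, 17, 21.5 and 16 against 183, 62, 115 and 51 on the genes. For U1 and U6 the top scores on pseudogenes were close to those on genes: RNU1-27P scored 1955, 1359, 1050 and 781, and the U6 copy RNU6-4P scored 195, 60, 121 and 52. For U2, U5, 5S and 7SK the highest pseudogene score was below the highest gene score in every list, as 371 against 546 for 5S in HSPA1A replicate 1. Some regions, on genes as well as pseudogenes, could not be told apart by score. Across the 479 regions there were 459 distinct sets of 4 scores, and 35 regions fell into 15 sets with all 4 scores the same. RNU6-12P, RNU6-19P, RNU6-31P and RNU6-32P each scored 27, 8, 18 and 15 over 41 bases, and TRG-GCC1-1 to TRG-GCC1-4 each scored 10, 11, 19 and 5. Peaks on such copies are uncertain between them. The authors' treatment of reads with several matches is not given in the sources used here.

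Copies of the 45S ribosomal transcript outside the left-out chromosome 21 repeats held 23 regions, on 10 annotated pseudogenes. Their median scores were 56, 14, 61 and 11, and 22 of 23 ranked lower in replicate 2 of both baits. LOC110467538, on chromosome 20 at 174, 36, 175 and 26, was the highest of them in all lists except HSPA8 replicate 2. The mitochondrial genome ranked likewise, with 8 of 8 regions lower in rank in replicate 2 of both baits. RNR2, the large mitochondrial rRNA, held the widest shared region, 1122 bases joined from 41 peaks, with a highest score of 976, 224, 989 and 110. The region over TRNV and the small mitochondrial rRNA RNR1 scored 474, 40, 753 and 23. The regions at TRNL1, 349, 20, 448 and 19, and at TRNF, 268, 19, 453 and 18, also took in rRNA bases. TRNK, with the ATP synthase genes ATP8 and ATP6, scored 40, 8, 52 and 7. Of the mitochondrial regions, 2 lay on the minus strand: 1 at TRNP, 18, 8, 14 and 10, and 1 on no gene from 212 to 397, 18, 9, 22 and 8.

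The snoRNA genes, whose RNAs guide or enable rRNA processing, held 12 regions on 10 genes, and U3 took 7 of them. SNORD3A, a U3 gene, scored 330, 73, 272 and 97, and its peaks ended at the last base of the gene in all 4 lists. The other U3 regions lay between 101 and 206, 14 and 50, 65 and 173, and 18 and 61. SNORD118, the U8 gene, scored 28, 9, 34 and 25. SNORD13 scored 21, 6, 20 and 23, SNORA73A 21, 5, 21 and 17, SNORA73B 18, 15, 14 and 15, and SNORD68 7, 5, 7 and 18. In HSPA1A replicate 2 SNORD68 and SNORA73A were at percentile 1.46. In HSPA8 replicate 2 they were at 48.5 and 46.5, and SNORD118 was at 58.4.

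The highest score of all lay on no gene. The region chr12:66057596-66057679, on the minus strand, scored 2494, 6560, 1330 and 3014, and was the highest in every list except HSPA8 replicate 1. IGF2R, the gene of a sorting receptor that also binds IGF2, held a region at chr6:160100726-160100806 that scored 1824, 4424, 991 and 2133, on the strand opposite to the gene. LOC105370906, inside LINGO1, scored 1311, 3137, 768 and 1536. SLC26A3, a chloride exchanger gene, scored 273, 680, 135 and 294. The regions of IGF2R, LOC105370906 and SLC26A3 ranked higher in replicate 2 of both baits, by 2.09 to 16.5 percentage points.

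The coding genes SLCO5A1, PDE3A, HFM1, RYR2, AAMDC, UNC45B and CA8 held regions that ranked lower in replicate 2 of both baits, as did 199 of the 479 regions. SLCO5A1 scored 1933, 202, 3011 and 157, PDE3A 1389, 160, 2016 and 115, and HFM1 833, 67, 2333 and 75. RYR2, the cardiac calcium release channel gene, held 4 regions, the highest at 716, 78, 942 and 66. AAMDC held 4 as well, the highest at 664, 76, 857 and 63, and a region on no gene of chromosome X scored 681, 75, 856 and 64. These last 3 were 61 to 63 bases wide, and their scores differed by no more than 10% in each list. UNC45B scored 355, 110, 453 and 99, and CA8 104, 34, 224 and 26. Further regions on no gene, at chr2:32916255-32916337 and chr5:71850936-71851050, scored 874, 123, 886 and 54 and 486, 58, 674 and 123. A further set of 3 regions on no gene, on chromosomes 1, 2 and 12, had 55 bases each and scores of 11, 33 to 34, 5 and 17 to 18.

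Of the 168 regions on coding genes, other non-coding genes or no gene, 12 matched a region of a named small RNA family within 10% of all 4 scores and 3 bases of covered length per list. FAM234B scored 362, 164, 634 and 115, against 371, 167, 653 and 113 for the 5S pseudogene RNA5SP370. RAI14 and FIG4 each matched the same 3 5S pseudogenes, and BTAF1 the U1 variant gene RNVU1-27. LOC124903591, LOC124906191, LOC124904641 and LOC124900916 matched U2 pseudogenes, and LOC105374754 a 5S pseudogene. The other 3, on no gene of chromosome 8, matched U1 or 5S pseudogenes. Their sequences were not compared, because no genome was used here.

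Strand separated coding regions by the number of lists. The strand of the gene was known for 48 of the 71 shared regions on coding genes alone, and 21 (43.8%, Wilson interval 30.7 to 57.7) lay on it. In regions of 3 lists it was 26 of 42 (61.9%), in 2 lists 43 of 73 (58.9%), and in 1 list 802 of 979 (81.9%, 79.4 to 84.2). The intervals for 4 lists and 1 list did not overlap. With 1 region per gene the shared regions gave 18 of 42 (42.9%, 29.1 to 57.8). The strand was not used to choose the regions.

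Scores of the shared regions ranked more alike between baits of the same replicate number than between replicates of a bait. Over 479 regions, which share libraries and near-identical copies and are not independent, Spearman's rho was 0.871 between HSPA1A replicate 1 and HSPA8 replicate 1 and 0.874 between the lists numbered 2. It was 0.704 between the HSPA1A lists and 0.540 between the HSPA8 lists, and 0.745 and 0.454 in the crossed pairs. With regions of the same gene class and the same 4 scores counted once, leaving 462 regions, the same 4 values were 0.874, 0.882, 0.696 and 0.533. The pattern differed by class. Among the 71 coding regions rho was 0.948 and 0.878 within a number and 0.238 and 0.316 within a bait, and among the 66 regions on no gene 0.962 and 0.740 against 0.167 and 0.332. Among the 62 Pol III regions it lay between 0.786 and 0.956 in all 6 pairs, and among the 50 snRNA regions between 0.869 and 0.97. The change in percentile from replicate 1 to 2 had the same sign in both baits in 354 of 479 regions (73.9%), 155 upward and 199 downward. A day or batch common to same-numbered lists is not named in the labels, and its part in these results was not tested.

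**Figure D4:**
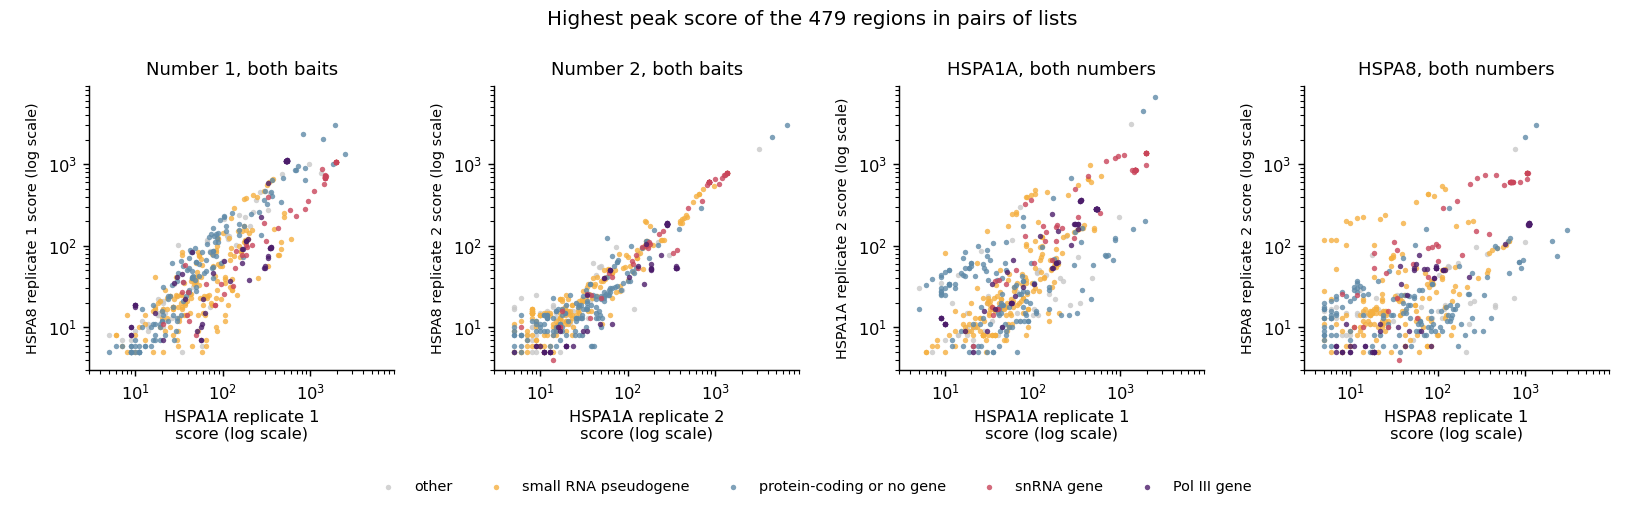
Highest peak score of each of the 479 regions in 2 lists (log scales on both axes), with lists of the same number in the first pair of panels and lists of the same bait in the second. Spearman's rho is 0.871, 0.874, 0.704 and 0.540 from left to right, and coding and no-gene regions spread more widely within a bait than within a number.

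The extent of the peaks was compared in the same way. The bases covered by both lists, as a share of those covered by either, were 89.3% and 84.5% for lists of the same number. They were 82.3% within HSPA1A and 76.9% within HSPA8, and 79.8% and 78.7% in the crossed pairs. The mean within a bait, 79.6%, was 3.49 percentage points below the mean between baits, 83.1% (exact permutation over 3 splits, one-sided, p = 0.667, smallest possible 0.333). Without HSPA8 replicate 1 the difference was 0.155. The median number of bases covered per region was 48 and 43 for HSPA1A and 50 and 42 for HSPA8. The difference of 0.5 bases between the means of 45.5 ± 3.54 and 46 ± 5.66 (SD, n = 2) was smaller than either SD (two-sided exact permutation test, p = 1). Its sign turned without HSPA1A replicate 2, to -2.0 bases, and without HSPA8 replicate 1, to -3.5. The regions of each list numbered 1 were thus the wider of their bait.

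Families ranked differently within each list, and the replicate number ordered several of them. The 58 U1 regions had medians of 64.1, 79.6, 42.8 and 82.7, and the 12 U5 regions 58.7, 73.8, 43.1 and 68.1. In both families each list numbered 2 stood above each list numbered 1. The reverse held for the 23 copies of 45S, at 47.0, 25.1, 57.4 and 24.4, and for the 8 mitochondrial regions, at 57.8, 24.1, 70.0 and 34.7. The 44 5S regions stayed high in every list, at 79.7, 77.9, 87.2 and 81.0. The 22 7SK regions had low medians, at 27.7, 39.2, 27.3 and 27.7. RN7SK itself scored 273, 103, 228 and 42, against medians of 29, 20, 14 and 11 on its pseudogenes. The highest pseudogene, RN7SKP203, stood closer to it, at 214, 81, 158 and 32.

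**Figure D5:**
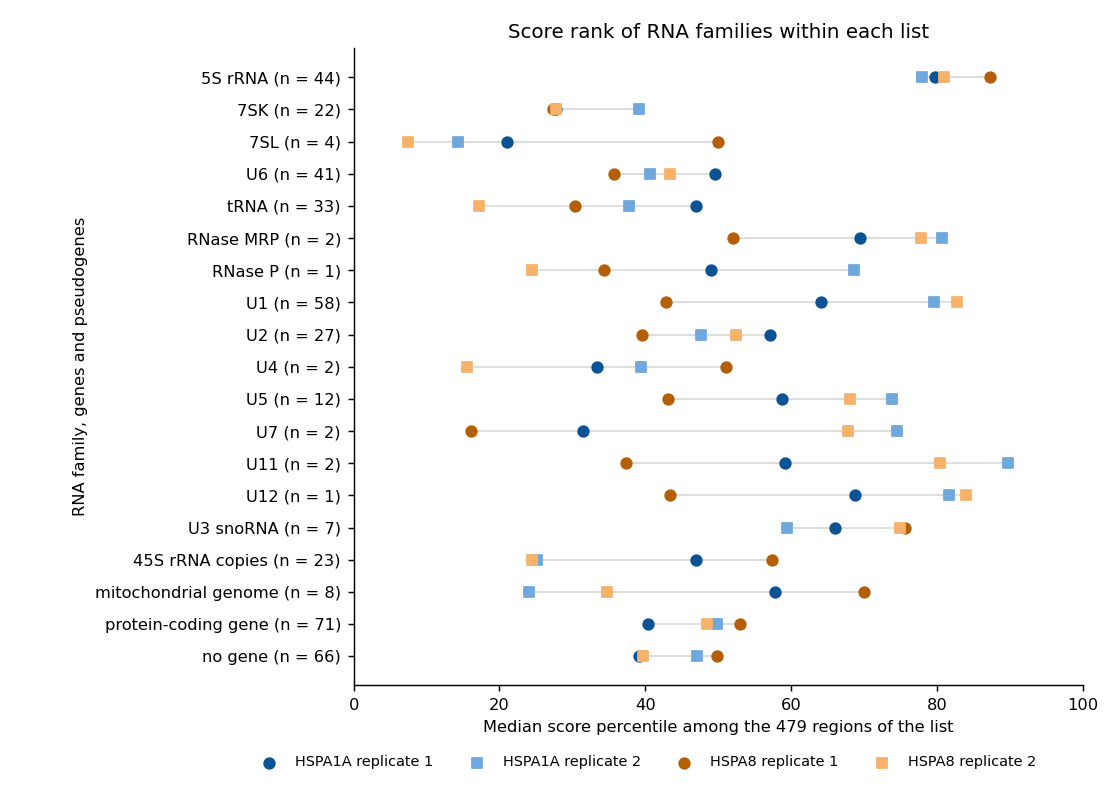
Median score percentile of the shared regions of each RNA family, genes and pseudogenes together, within each of the 4 lists (x axis); circles mark lists numbered 1 and squares lists numbered 2. The squares lie to the right of the circles for U1, U5, U7, U11, U12 and RNase MRP. They lie to the left for 7SL, 45S copies and the mitochondrial genome, while 5S stays between 77.9 and 87.2. U12 holds 1 region, and U7, U11 and RNase MRP hold 2 each. Families were set by gene symbol, so the unnamed snRNA genes of the chromosome 17 array are left out of U2.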

How the data were processed

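Peak lists from FLASH-seq of HSPA1A and HSPA8 (2 replicates each) were used as deposited. The authors gave each peak coordinates with a strand, and a score in whole numbers, whose meaning the sources used here do not give. Per the submitters' processing notes, Trim Galore 0.4.4, FastQC, STAR 2.6.0b and deepTools were used with GRCh38. The peak caller and threshold are not given in the sources used here. Depth is unknown, and p-values measure only the spread between 2 lists per bait. The smallest p was 0.333 for bait labels and 0.5 with the replicate block.

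Names with or without the chr prefix were joined. Scaffolds and chromosome 21 below position 9000000 (ribosomal DNA) were left out, and peaks sharing at least 1 base on a strand were merged. Regions were assigned to genes of RefSeq's GRCh38.p14 table. Small RNA genes have no strand there, so their bases count along the strand of the peak. The highest score per region and list was ranked as a percentile among shared regions. Python 3.11.15, pandas 2.3.3, scipy 1.17.1 and statsmodels 0.14.6 were used. On simulated lists all 300 planted shared regions were recovered.

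Members and lists were chosen with earlier results of these data known. Named were all Pol III genes other than tRNA, the anticodon groups and 5 top tRNA genes, all U snRNA genes, and by mean percentile the top 10 snoRNA, 12 coding, 8 other non-coding and 5 mitochondrial genes and 5 regions on no gene. Not every gene this rule names is reported here. Other names, among them pseudogenes, regions with printed sequences and profile matches, were chosen after their values were seen. Alternatives changed the overlap, score threshold, strand, copies, gene assignment, score summary and lists used.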

Additional observations from a re-analysis of the deposited data

Results flagged for a closer look

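Peaks left out of the regions also recurred between lists. On the chromosome 21 ribosomal DNA, 169 of 216 merged regions had a peak in all 4 lists. On unplaced and alternate scaffolds, 226 of 314 merged regions had a peak in both HSPA8 lists. The HSPA1A lists had 0 peaks on scaffolds, and the HSPA8 lists 353 and 617. Both are signals outside the regions compared in the report.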

How the results depend on the processing

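Of 88 alternatives over all results, 75 were counted as the same, 10 as moved and 3 as reversed. For the width, overlap and rank differences, the same meant only the same sign, whatever the size. For the region count it meant a limited ratio to the main count, and for shares the Wilson interval of the main value. The count of 479 regions was 304 with peaks at or above the median score of their list, and 648 with the ribosomal DNA kept. Leaving out a list gave 511 to 679. By base pairs in place of regions, Pol III made up 16.7%, mitochondrial 10.5%, snRNA 14.8%, snoRNA 4.74%, small RNA pseudogenes 26.6%, other non-coding 4.15% and coding 11.6%, since regions differ in width. With the higher score threshold snRNA made up 15.1%. The width difference of 0.5 bases was 0.0 with copies counted once and -3.5 to 4.5 without a list (-2.0 without HSPA1A replicate 2, -3.5 without HSPA8 replicate 1). The base overlap difference was -7.68 to 0.155 without a list, reversed without HSPA8 replicate 1. The cause was not tested. The rank differences kept their sign without any list, at 4.12 to 15.2 for Pol III and 12.1 to 25.1 for tRNA. With the replicate block the differences were 0.5 bases (exact sign-flip p = 1), 9.68 for Pol III (p = 0.5) and 18.6 for tRNA (p = 0.5). Only 2 pairs exist and the labels name no shared day, so the lists share only a number. Added after seeing the data, the score agreement within a number minus within a bait, 0.251, was 0.239 to 0.284, and both other settings left the share of coding regions on the gene's strand inside its interval. Depth is unknown, so an absent peak is no evidence of absent binding.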
